A study of Homo sapiens with 30 samples.

Results

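The genes described here encode the proteins of the cytosolic ribosome. They were chosen by symbol, as all genes named RPL or RPS with a number and at most an A, X or L after it, together with RPLP0, RPLP1, RPLP2 and RPSA, and without pseudogenes or the RPS6K kinases. The rule found 80 of the 60554 genes counted, 49 of the large subunit and 31 of the small subunit. They were measured by RNA-seq in T47D, a human luminal breast cancer cell line that carries the progesterone receptor, at passages 18 to 20. The libraries form 6 groups of 2. Cells with siRNA to CEBPA (siCEBPA) and cells with control siRNA (siControl) were each sequenced after hormone (titled progesterone; the protocol names the synthetic progestin R5020 at 10 nM; time label T360, given without a unit) and untreated (T0), and the labels name a short arrest for all 4 of these groups, which the protocol describes as 4 hours in charcoal-stripped serum before hormone. The ICRF progestin group, with the same hormone title, and the ICRF untreated group name no siRNA, arrest or time, and the series text speaks of inhibiting Topo2a. These libraries may therefore differ from the siRNA libraries in more than ICRF. All groups are of 1 cell line, and whether replicates came from separate cultures is not stated, so the p-values measure only the spread between these libraries.

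A ribosome is built from ribosomal RNA and about equal numbers of copies of each ribosomal protein, so the messenger RNAs of these proteins are kept at high and matched levels in growing cells. Most of these messenger RNAs begin with a C followed by a run of pyrimidines, the 5′ terminal oligopyrimidine (TOP) tract, through which mTORC1 signalling and the RNA-binding protein LARP1 control their translation. In breast cancer cells, as in other cells, ribosome production follows growth.

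The starts of the genes are shown first because the members share this feature and the rule did not use it. RefSeq (GRCh38.p14) gave a start for 63 of the 80 members. In 46 of these 63 members (73.0%) a listed start was a C followed by 4 bases that were each C or T, against 4.98% of 27242 other genes with a listed start. The median unbroken run of pyrimidines that covers the start base was 11 bases and the longest, in RPL7A, was 25. The letters CTTTCC stood on the gene's strand within the 20 bases before and 30 bases from the start in 34.9% of members and 2.87% of other genes, and on the opposite strand in 1.59% and 2.75% of the same sets. On the gene's strand they can overlap the pyrimidine run. The 6 windows below hold 4 members that were among the most reduced by CEBPA siRNA (RPL28, RPL10, RPS19, RPL4) and 2 that were not reduced (RPL11, RPS26). Each has a listed start as base 16 of 30, and capitals mark the pyrimidine run that covers it. RPL10 has 3 listed starts and RPS19 and RPL11 have 2 each, and the start with the longest run is shown. Where there is no capital, the listed start base is a purine, and a pyrimidine run further along is not marked.
RPL28, chr19:55385917-55385946, plus strand: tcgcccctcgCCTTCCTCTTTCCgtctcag
RPL10, chrX:154398362-154398391, plus strand: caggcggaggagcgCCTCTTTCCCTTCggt
RPS19, chr19:41860240-41860269, plus strand: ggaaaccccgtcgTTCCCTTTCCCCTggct
RPL4, chr15:66504841-66504870, minus strand: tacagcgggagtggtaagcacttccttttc
RPL11, chr1:23691791-23691820, plus strand: cggaagctccgCTTTCTCTTCCTgctctcc
RPS26, chr12:56041903-56041932, plus strand: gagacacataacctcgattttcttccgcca

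Library totals ran from 57364785 to 148624099 read pairs counted in genes. The luminal markers fixed for the tissue check were all above 1 CPM (counts per 1000000 counts), 10 of 10, none of the 4 endothelial and 5 blood markers reached it on average, 1 of 6 basal or myoepithelial and 1 of 5 fibroblast markers did, with summed levels of 9.23 to 37.6 and 26.0 to 69.8 CPM, and HBB and CD3E stayed under 0.05 CPM in every library. The summed luminal markers were 7322 and 7364 CPM in siCEBPA untreated cells, against 8534 and 9005 CPM in siControl untreated cells, and 6625 and 6928 CPM in siCEBPA progestin cells, against 8776 and 9397 CPM in siControl progestin cells. They were 4623 and 4866 CPM in ICRF progestin cells, against 10273 and 10335 CPM in ICRF untreated cells, with no overlap in any of these pairs of groups. Their part in the results below was not tested. CEBPA, the target of the siRNA, had 10.7 and 12.1 CPM in siCEBPA untreated cells, against 47.8 and 54.4 CPM in siControl untreated cells, and 57.5 and 62.2 CPM in siCEBPA progestin cells, against 207 and 204 CPM in siControl progestin cells. The groups did not overlap, and the log2 fold changes were -2.16 ± 0.073 and -1.76 ± 0.065 (± standard error). CPM values throughout are scaled by the TMM effective library size over all 12 libraries.

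Per length of gene, the highest members were RPL7A, RPS18 and RPS27, the first of the large and the other two of the small subunit, at 764.2, 656.3 and 554.6 CPM per kilobase on average over the 12 libraries. The median of the 79 members tested was 138.2 CPM per kilobase, and 73 of the 80 members averaged at least 100 CPM. The lowest tested were RPL17 at 12.1, RPL36A at 0.648 and RPL10L at 0.217 CPM per kilobase. The deposited length joins all annotated exons of a gene, so genes with long rare exons read low on this scale. RPL17 and RPL36A share exon bases on the same strand with read-through genes of GENCODE 24 (RPL17-C18orf32 and RPL36A-HNRNPH2), and a read pair that overlaps 2 genes was counted for neither, so their levels are uncertain. The same holds for RPS10, which overlaps RPS10-NUDT3. In 17 members other genes on the same strand overlap more than 5% of the length, among them RPS2 (25.6%) and RPL7A (12.7%). RPL10L and RPL39L are paralogues known for expression in testis, and RPL3L is a muscle paralogue of RPL3. RPL3L had between 0 and 8 counts per library, and a count of 0, found in 2 libraries, allows a level of up to 0.0523 CPM (3 counts). It was not tested, which leaves 79 of 80 members in each comparison.

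**Figure D1:**
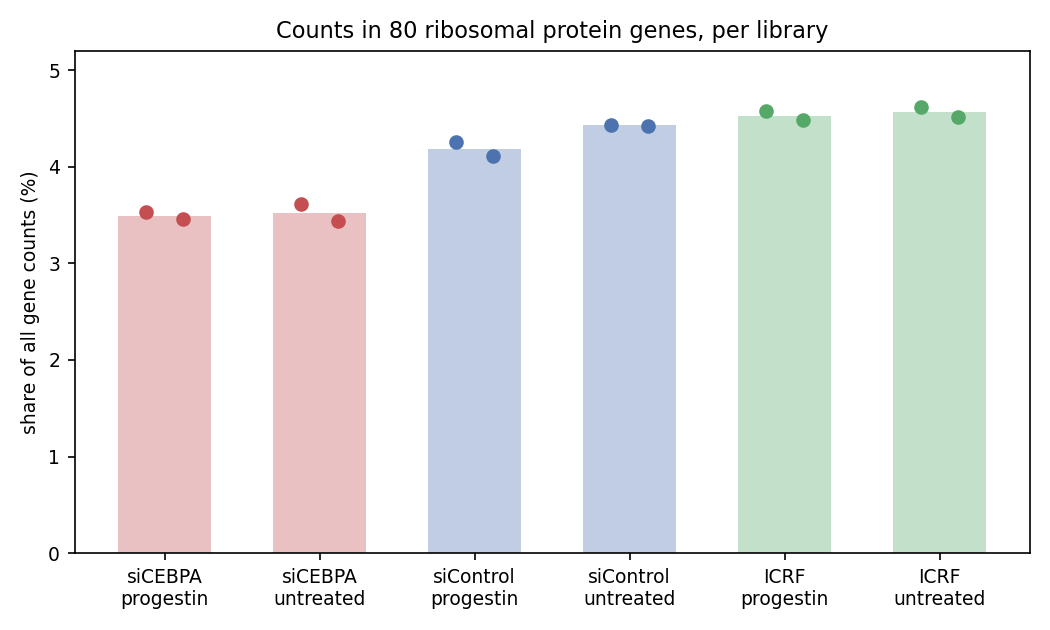
The share of all gene counts that fell in the 80 ribosomal protein genes, in percent, by group; points are libraries and bars are means of 2. The 4 siCEBPA libraries lie between 3.43% and 3.61%, and the other 8 libraries lie between 4.11% and 4.62%.

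The share of the transcriptome held by these genes was lower after CEBPA siRNA, with and without hormone. They held 3.61% and 3.43% of all gene counts in siCEBPA untreated cells, against 4.43% and 4.42% in siControl untreated cells. With progestin they held 3.53% and 3.46% in siCEBPA cells, against 4.26% and 4.11% in siControl cells. No siCEBPA library reached the lowest siControl library. The group means were 3.52% ± 0.126 and 4.43% ± 0.00833 without hormone (SD, n = 2 each), a relative change of -20.5%, and 3.49% ± 0.0518 and 4.19% ± 0.102 with hormone (SD, n = 2 each), a relative change of -16.6%. Counting error is far smaller than this, since the 95% Wilson interval of a library's share was at most ± 0.00492 percentage points. The change did not rest on 1 subunit, as the ratio of large to small subunit counts averaged 1.87 in siCEBPA untreated cells and 1.88 in siControl untreated cells. Counts of the 1586 named ribosomal protein pseudogenes, some of which may be read pairs of the members themselves, averaged 233.4 CPM in siCEBPA untreated cells and 283.4 CPM in siControl untreated cells. With the mitochondrial genes left out of the total, the members' share averaged 3.67% in siCEBPA untreated cells and 4.64% in siControl untreated cells. These are shares of the sequenced RNA, and fewer ribosomal protein messenger RNAs per cell and more of other RNAs cannot be told apart. Nor can fewer cells of a type and less RNA per cell, since each library is a bulk sample.

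In untreated cells CEBPA siRNA lowered nearly the whole set. Of the 79 members tested 74 were lower and 0 higher, at an adjusted p under 0.05 in edgeR's quasi-likelihood test, against 24.0% lower and 22.6% higher of all 18351 genes. The median log2 fold change of the members was -0.43 (a change of -26.0%), and that of all genes was 0.0062. The members' quartiles were -0.50 and -0.36, with 71 members below -0.25 and 19 below -0.5. In 76 members every siCEBPA library was below every siControl library, against 37.0% of all genes. Large and small subunit members had medians of -0.43 and -0.43, with 44 of 48 and 30 of 31 lower.

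RPL28, RPL4 and RPL10 were among the most reduced members. RPL4, a large subunit protein with a loop that lines the exit tunnel, had 1180.2 and 1130.3 CPM in siCEBPA untreated cells, against 1821 and 1819 CPM in siControl untreated cells. The groups lay far apart beside the gap between replicates, and the log2 fold change was -0.65 ± 0.039 (adjusted p = 2.58e-09). RPL28 had 146 and 145 CPM, against 216 and 244 CPM, a log2 fold change of -0.65 ± 0.085 (adjusted p = 0.000242), with a wider spread in siControl cells. RPL10, which sits beside the catalytic centre of the ribosome, had 331 and 311 CPM, against 482 and 488 CPM (-0.59 ± 0.044, adjusted p = 2.88e-08). Genes on the opposite strand overlap 52.7% of RPL10's exon length, and counting was set to use the strand.

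**Figure D2:**
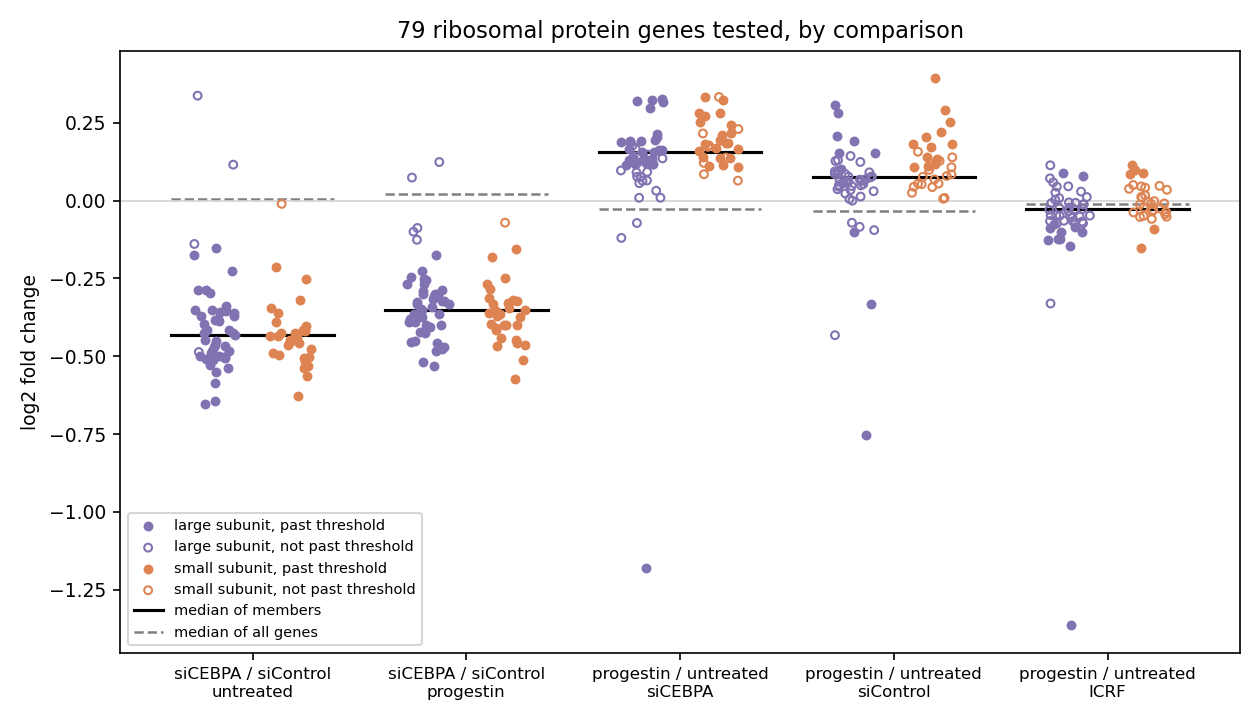
The log2 fold change of each of the 79 members tested in 5 comparisons, large subunit at left and small subunit at right of each column; filled points passed an adjusted p of 0.05, the black line is the median of the members and the dashed line the median of all genes. The members lie near -0.43 and -0.35 with CEBPA siRNA and within about 0.25 of zero for most hormone responses.

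With progestin present CEBPA siRNA again lowered nearly the whole set. Of the 79 members 73 were lower and 0 higher (22.1% lower and 22.5% higher of all 18351 genes), the same 73 that were lower without hormone, and RPL15 was lower only in the untreated comparison. The median log2 fold change was -0.35, a change of -21.7%, beside 0.020 for all genes. In 74 members every siCEBPA library was below every siControl library, against 36.3% of all genes. RPL28, RPL4 and RPS19 were among the most reduced members. RPS19, a small subunit protein whose loss causes Diamond-Blackfan anaemia, had 336 and 339 CPM in siCEBPA progestin cells, against 496 and 476 CPM in siControl progestin cells. Its log2 fold change was -0.51 ± 0.045 (adjusted p = 1.92e-07), and RPL28 changed by -0.53 ± 0.085 and RPL4 by -0.52 ± 0.038. The untreated and progestin comparisons share no library. Across the 77 members with a mean of at least 5 CPM their log2 fold changes were correlated (Pearson's r 0.93, Spearman's rho 0.88), a description across genes that are not independent replicates.

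**Figure D3:**
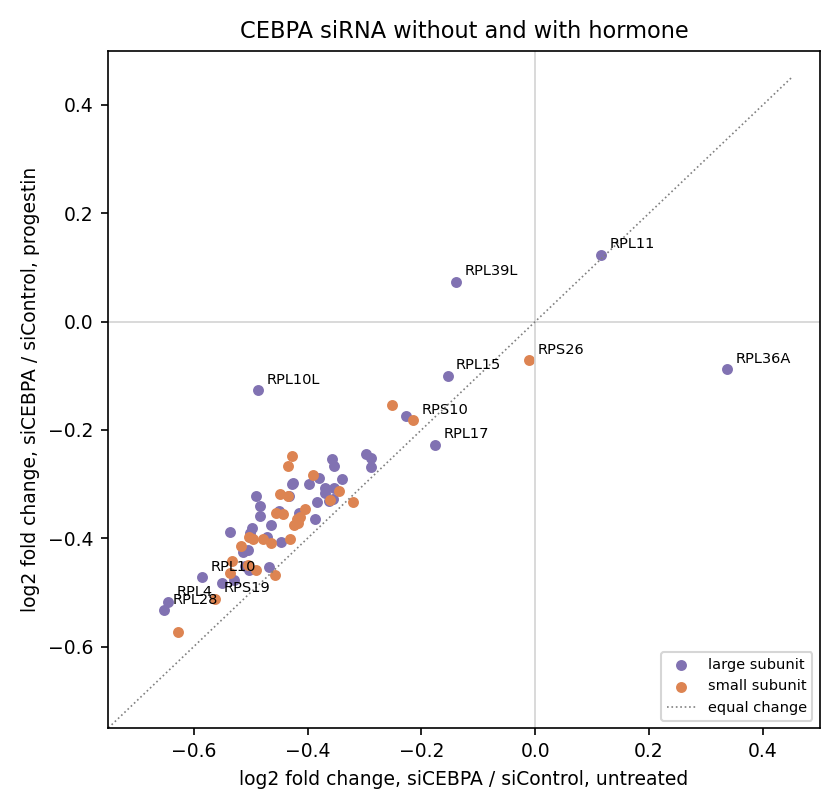
The log2 fold change with CEBPA siRNA in untreated cells (horizontal) and in progestin-treated cells (vertical), 1 point per member. Most members lie slightly above the line of equal change, and RPL11, RPS26, RPL36A, RPL39L and RPL10L lie away from the rest.

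The members that were not lower in either comparison were RPL11, RPS26, RPL36A, RPL39L and RPL10L. RPL11 is the protein that, with RPL5 and the 5S ribosomal RNA, binds MDM2 when ribosome assembly is disturbed. RPL11 had 348 and 324 CPM in siCEBPA untreated cells, against 316 and 309 CPM in siControl untreated cells, and 390.3 and 366 CPM in siCEBPA progestin cells, against 365 and 336 CPM in siControl progestin cells. The siCEBPA libraries were the higher in both states, with log2 fold changes of 0.12 ± 0.050 (adjusted p = 0.0742) and 0.12 ± 0.050 (adjusted p = 0.0587), which did not pass. Its partner RPL5 was lower, with 496 and 458 CPM in siCEBPA untreated cells, against 626 and 602 CPM in siControl untreated cells (-0.35 ± 0.053, adjusted p = 7.85e-05; -0.31 ± 0.053 with progestin). The test of the difference between RPL11 and RPL5 was not run.

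RPS26, a small subunit protein at the messenger RNA exit site, had 109.9 and 88.5 CPM in siCEBPA untreated cells, against 103 and 98.7 CPM in siControl untreated cells. The groups overlapped, and its log2 fold change was -0.011 ± 0.12, with a standard error more than 2 times the median of the set, 0.048. RPL15, a large subunit protein, was little reduced, with 783 and 729 CPM, against 846 and 849 CPM (-0.15 ± 0.042, adjusted p = 0.00643), and -0.10 ± 0.042 with progestin (adjusted p = 0.0627). RPL39L had 38.3 and 37 CPM, against 41.6 and 42.1 CPM, a log2 fold change of -0.14 ± 0.056 (adjusted p = 0.0532). RPL36A had a log2 fold change of 0.34 ± 0.14 (adjusted p = 0.0644) on 3.9 and 3.83 CPM in siCEBPA untreated cells, against 2.86 and 3.26 CPM in siControl untreated cells, and RPL10L stayed below 0.3 CPM in every library. Of the 63 members with a listed start, the 46 with a C and 4 pyrimidines had a median log2 fold change of -0.43 in untreated cells and the other 17 had -0.43. RPL11 has such a listed start and RPL4 does not. The listed starts are annotation, and the starts used in these cells were not measured. RPL4 and some others of the 17, such as RPL10A and RPL9, have a pyrimidine run shortly after the listed start. The 2 sets therefore need not divide messenger RNAs with a TOP tract from those without.

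By role, the proteins of the stalk, which recruits translation factors to the large subunit, were all lower. RPLP0 had 1715 and 1605 CPM in siCEBPA untreated cells, against 2285 and 2353 CPM in siControl untreated cells (-0.47 ± 0.041). RPLP1 and RPLP2 changed by -0.46 ± 0.054 and -0.47 ± 0.051, and by -0.38 ± 0.054 and -0.45 ± 0.051 with progestin. RPS6, the small subunit protein phosphorylated by S6 kinases, fell by 0.42 on the log2 scale without hormone and RPSA, also a laminin-binding protein, by 0.42. RPS27A, made as a fusion with ubiquitin, had 287 and 261 CPM, against 384 and 367 CPM (-0.44 ± 0.049). Of 16 members in which mutations cause Diamond-Blackfan anaemia, 14 were lower without hormone and 13 with it, beside 24.0% and 22.1% of all genes. Those not lower were RPL11 and RPS26 in both states and RPL15 with hormone.

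**Figure D4:**
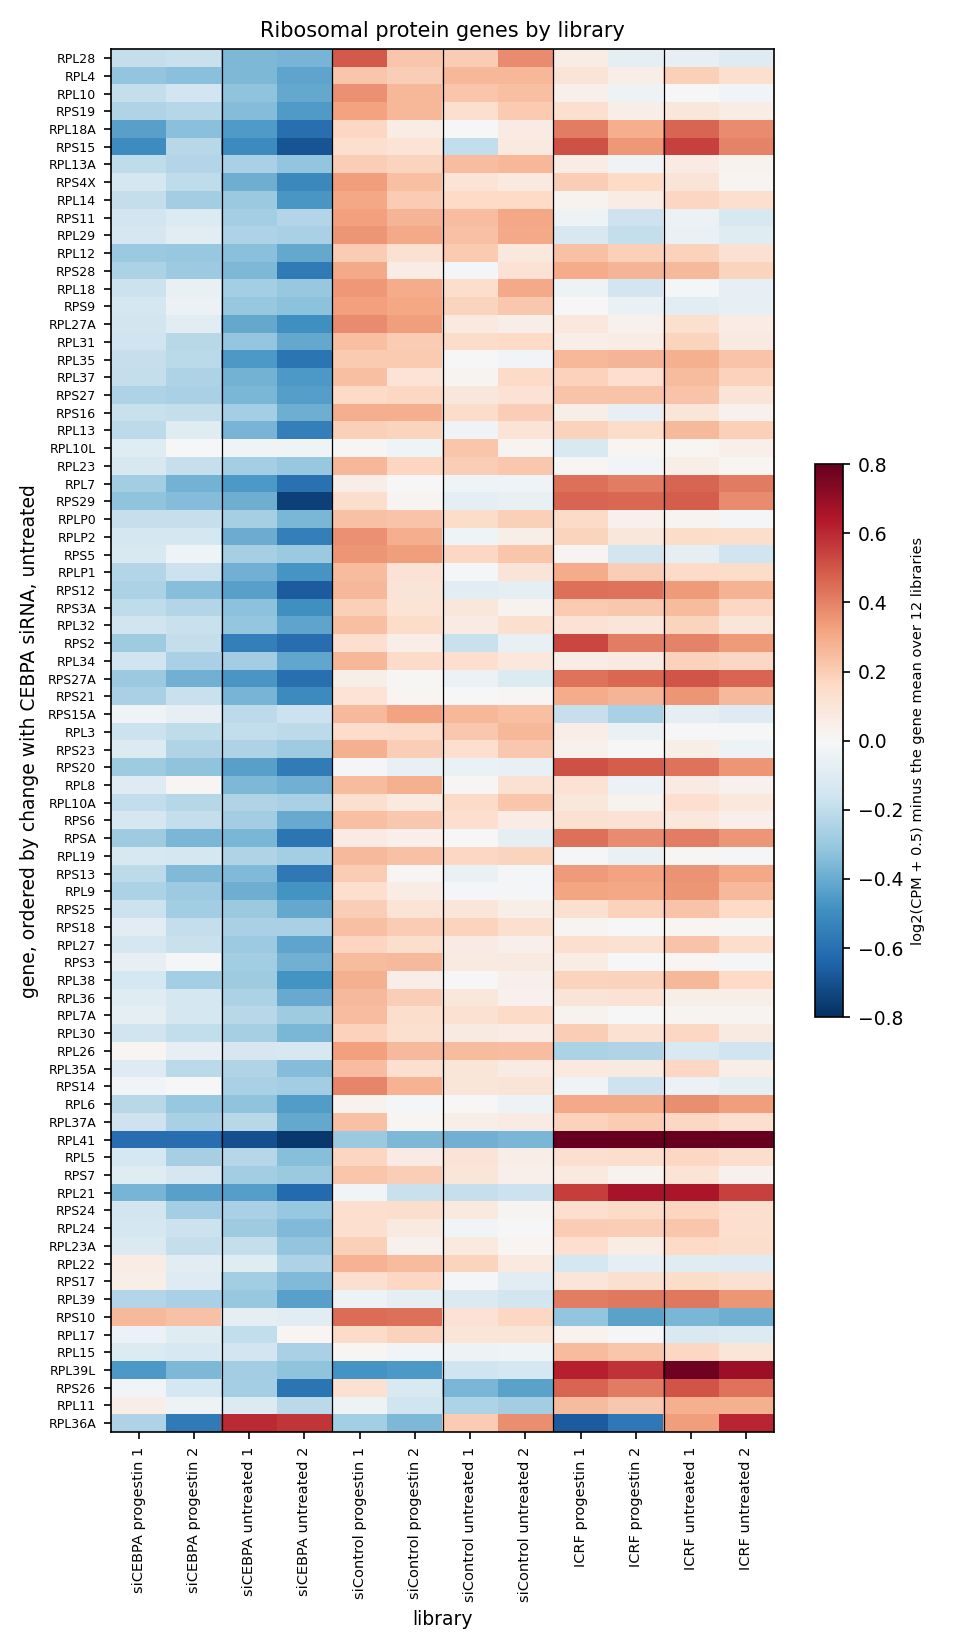
Log2(CPM + 0.5) of the members tested, 1 of them not shown, in each of the 12 libraries, minus the gene's mean over the libraries, with genes ordered by their change with CEBPA siRNA in untreated cells. The 4 siCEBPA columns are blue (lower) for most genes, and RPL41, RPL39L and RPL21 stand out as higher (red) in the 4 ICRF columns.

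Ribosome components whose symbols the rule does not match followed the set in part. RACK1, the scaffold on the small subunit head, and FAU, a fusion that gives ribosomal protein eS30, changed by -0.57 ± 0.038 and -0.33 ± 0.039 (adjusted p = 7.22e-09 and 4.11e-06). The paralogue RPL26L1 went the other way, with 24.4 and 24.3 CPM, against 18 and 18 CPM (0.45 ± 0.068, adjusted p = 5.36e-05). The 8 such genes gave 5 lower and 1 higher without hormone, and 5 lower and 2 higher with it. All genes gave 24.0% lower and 22.6% higher without hormone, and 22.1% and 22.5% with it.

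Genes of the wider translation apparatus were also mostly lower, where 24.0% of all genes were lower and 22.6% higher without hormone, and 22.1% and 22.5% with it. A list of genes with TOP messenger RNAs held translation factors and also NPM1, HNRNPA1 and NAP1L1, which are not translation factors. Of the 16 tested, 13 were lower and 2 higher in untreated cells, with a median of -0.22. With progestin 11 were lower and 2 higher, with a median of -0.20. The elongation factor genes EEF1B2 and EEF1A1 changed by -0.56 ± 0.050 and -0.50 ± 0.039 without hormone, and PABPC1, the poly(A)-binding protein gene, by -0.42 ± 0.037. NAP1L1, a histone chaperone gene, rose by 0.47 ± 0.044. Among 50 ribosome biogenesis genes 37 were lower and 3 higher without hormone (median -0.24) and 31 were lower and 3 higher with it (median -0.22). The nucleolar genes NOLC1 and TCOF1 were among those that rose, by 0.79 ± 0.044 and 0.51 ± 0.043 without hormone, and RRS1, needed to assemble the 5S particle, changed by -0.77 ± 0.053. Of 9 ribosomal protein chaperones and factors that act with free ribosomal proteins, 7 were lower and 0 higher in both states, such as the importin gene IPO5 (-0.38 ± 0.045 without hormone).

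Of 20 genes of the mTORC1 pathway and of the control of TOP messenger RNAs, 14 were lower and 1 higher in untreated cells and 10 were lower and 1 higher with progestin. The shares of all genes were 24.0% lower and 22.6% higher in untreated cells, and 22.1% and 22.5% with progestin. EIF4EBP1, which encodes a repressor of cap-dependent translation, changed by -1.16 ± 0.065, DDIT4 and SESN2, which encode inhibitors of mTORC1, by -1.45 ± 0.064 and -0.91 ± 0.064 in untreated cells, and the transcription factor gene MYC by -0.53 ± 0.054 with progestin.

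Other highly expressed genes, and the short ones among them, were also lower on balance. Length here is the deposited length, which joins all annotated exons. Most members exceed 2000 bases on it, such as RPL4 with 5637 bases, so the short genes are not matched to the members in length. Among 121 other genes with a mean of at least 100 CPM and a length of at most 2000 bases, 82 were lower and 8 higher in untreated cells, with a median of -0.23, and 69 were lower and 7 higher with progestin, with a median of -0.20. Among all 2407 other genes with at least 100 CPM the medians were -0.087 and -0.062. The members' own medians were further below zero than these, and the part of transcript length and level in the result was not tested. Of 13 mitochondrially encoded messenger RNAs, 4 were lower and 1 higher without hormone and 1 was lower and 0 higher with it. For all of these sets the shares of all genes were 24.0% lower and 22.6% higher without hormone. With progestin they were 22.1% and 22.5%. Among the 77 members with at least 5 CPM, log2 fold change in untreated cells had Pearson correlations of -0.10 with level per kilobase and -0.21 with gene length.

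For the hormone response the direction of the set depended on how the libraries were scaled. With TMM scaling, 20 of 79 members were higher and 3 lower in siControl progestin cells than in siControl untreated cells, against 29.2% higher and 29.3% lower of all 18351 genes, which is below the background in both directions. The median was 0.077 for the members and -0.035 for all genes. With no scaling factors 3 were higher and 24 lower, beside 20.9% higher and 40.8% lower of all genes. With upper quartile factors 5 were higher and 9 lower, beside 23.2% and 37.4% of all genes. The median of all genes moved to -0.19 and -0.15 under these settings, so the downward shift is shared by all genes. The median of all genes was below zero under each of 5 scalings, and only that of the members changed sign. Relative to the median of all genes, the members' median lay 0.11 higher under each of 5 scalings. A scaling factor shifts all genes nearly alike, so this gap could not move. Among 2407 other genes with a mean of at least 100 CPM the median was 0.12 with TMM (1224 higher, 585 lower). Among the 121 of these with a deposited length of at most 2000 bases, which most members exceed, it was 0.15 (63 higher, 7 lower). Both lay above the members' 0.077. The share of all counts, which uses no scaling, was 4.26% and 4.11% in siControl progestin cells, against 4.43% and 4.42% in siControl untreated cells, a relative change of -5.46%. Without siControl progestin replicate 1 the count of higher members was 12.

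The members with the largest values kept their sign under all 5 scalings. RPS26 had 144 and 122 CPM in siControl progestin cells, against 103 and 98.7 CPM in siControl untreated cells (0.39 ± 0.12, adjusted p = 0.0343). RPLP2, a stalk protein, had 222 and 210.2 CPM, against 168 and 178 CPM (0.31 ± 0.051, adjusted p = 8.21e-05). RPS10 and RPL27A changed by 0.29 ± 0.052 and 0.28 ± 0.041. The members called lower were RPL36A, RPL39L and RPL3. RPL39L had 33.3 and 33.7 CPM in siControl progestin cells, against 41.6 and 42.1 CPM in siControl untreated cells (-0.33 ± 0.057, adjusted p = 9.75e-05), and RPL3, a core large subunit protein, changed by -0.10 ± 0.037 (adjusted p = 0.0268). RPL10A and RPL13A had -0.095 ± 0.040 and -0.084 ± 0.038 and did not pass.

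In siCEBPA cells the hormone response of the set also depended on the scaling. With TMM scaling 48 of 79 members were higher and 1 lower in siCEBPA progestin cells than in siCEBPA untreated cells (29.9% higher and 28.4% lower of all genes), with a median of 0.15 beside -0.028 for all genes. With no scaling factors the counts were 7 higher and 6 lower, beside 20.7% and 41.3% of all genes, and the median was -0.011. With upper quartile factors they were 11 higher and 4 lower, beside 22.4% and 38.3% of all genes. The members' median lay 0.18 above that of all genes under each of 5 scalings, a gap that scaling leaves nearly unchanged by construction. Among the 2407 other genes with at least 100 CPM the median was 0.13 with TMM (1276 higher, 493 lower). Among the 121 short ones it was 0.16 (66 higher, 9 lower), close to the members' 0.15. The share of counts was 3.53% and 3.46% in siCEBPA progestin cells, against 3.61% and 3.43% in siCEBPA untreated cells, and the groups overlapped. The count of higher members was 27 without siCEBPA untreated replicate 2. The largest positive values were those of RPS26 (0.33 ± 0.12, not past the threshold), RPS2 (0.33 ± 0.049), RPL27A (0.33 ± 0.041) and RPS10 (0.32 ± 0.053). RPS2, a small subunit protein at the messenger RNA entry side, had 569.8 and 607 CPM in siCEBPA progestin cells, against 475 and 454 CPM in siCEBPA untreated cells. Over all libraries its named pseudogenes held 77286 counts, beside 762243 of its own.

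**Figure D5:**
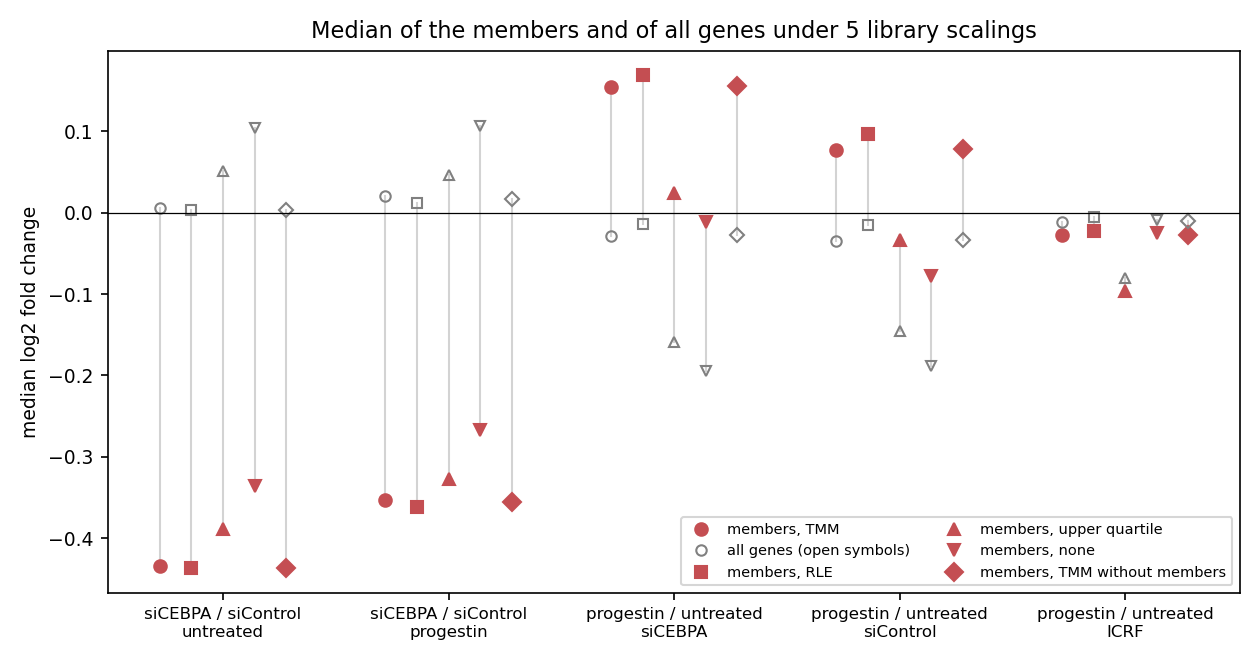
The median log2 fold change of the members (filled red) and of all genes tested (open grey) under 5 ways of scaling the libraries, for each comparison. A scaling factor shifts all genes nearly alike, so the medians move together and the gap between them stays nearly the same by construction. The gap is 0.11 in siControl cells, 0.18 in siCEBPA cells and about -0.44 and -0.37 with CEBPA siRNA.

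The hormone responses of the members in siCEBPA and siControl cells were compared by a test of the difference. It gave 0 members higher and 0 lower in edgeR (4.19% and 3.06% of all genes), and 0 and 0 in DESeq2, but 2 higher and 0 lower without the filter on low counts and also without siCEBPA untreated replicate 1. At an unadjusted p under 0.05 there were 6 members higher and 0 lower, where all genes gave 11.1% and 8.21%. The median difference of log2 fold changes was 0.063, with a median standard error of 0.068 per member, so differences of about that size were not detectable. The median was 0.13 without siCEBPA untreated replicate 1, 0.10 without siControl progestin replicate 1, 0.037 without siControl progestin replicate 2 and 0.026 without siCEBPA untreated replicate 2. Relative to the median of all genes it ran from 0.00020 to 0.098 when 1 library was left out. Among members with at least 5 CPM, RPL39L (0.21 ± 0.080), RPS20 (0.18 ± 0.063), RPL13 (0.17 ± 0.089) and RPS21 (0.17 ± 0.073) had the largest positive values, and RPS26 (-0.061 ± 0.18), RPL17 (-0.051 ± 0.097), RPS24 (-0.012 ± 0.064) and RPS12 (-0.011 ± 0.11) the largest negative ones. The same numbers are the difference between the effects of CEBPA siRNA with and without hormone.

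Under ICRF the median hormone response of the members was close to that of all genes. The members held 4.58% and 4.48% of counts in ICRF progestin cells, against 4.62% and 4.51% in ICRF untreated cells, and these groups overlapped. Of 79 members 6 were higher and 12 lower, against 31.3% higher and 30.0% lower of all 18556 genes, with medians of -0.027 for the members and -0.011 for all genes. With upper quartile factors 0 were higher and 48 lower, beside 27.5% higher and 35.4% lower of all genes. The counts moved between 0 and 12 higher and 4 and 27 lower when 1 library was left out, with 0 higher without ICRF untreated replicate 2, 12 higher without ICRF progestin replicate 2, 4 lower without ICRF untreated replicate 1 and 27 lower without ICRF progestin replicate 1.

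RPS15A, a small subunit protein, had 254 and 241 CPM in ICRF progestin cells, against 274 and 269 CPM in ICRF untreated cells, the lowest log2 fold change among the well counted members (-0.15 ± 0.034, adjusted p = 0.000162). RPL39L, RPL14 and RPL34 changed by -0.15 ± 0.042, -0.13 ± 0.032 and -0.12 ± 0.034. On the other side, RPS12 had 509 and 506 CPM in ICRF progestin cells, against 474 and 454 CPM in ICRF untreated cells (0.11 ± 0.033, adjusted p = 0.00255), and RPS4X and RPS2 changed by 0.10 ± 0.033 and 0.090 ± 0.035. RPL17 had 0.11 ± 0.055 and did not pass. RPL36A, with few counts, had the largest change of all, with 1.33 and 1.45 CPM in ICRF progestin cells, against 3.16 and 3.93 CPM in ICRF untreated cells (-1.36 ± 0.15, adjusted p = 1.62e-10). It was also lower with hormone in siCEBPA cells (-1.18 ± 0.16) and in siControl cells (-0.75 ± 0.16), and its levels were 1.95 and 1.47 CPM in siCEBPA progestin cells, against 3.9 and 3.83 CPM in siCEBPA untreated cells.

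The hormone response of the members was lower under ICRF than in siControl cells in 20 of 79 and higher in 1, against 24.0% lower and 24.9% higher of all 19003 genes, so with TMM the number lower was close to the background and the number higher below it. With TMM factors computed without the members 30 were lower, beside 26.1% of all genes, and with RLE factors 26 were lower, beside 25.4%. The median difference was -0.10, beside 0.020 for all genes, and with no scaling factors it was 0.052 beside 0.17 for all genes, with 12 members higher and 2 lower beside 32.8% and 17.5% of all genes. Relative to all genes it was -0.12 under each of 5 scalings, a gap that scaling leaves nearly unchanged by construction. Among 2407 other genes with a mean of at least 100 CPM the median difference was -0.15 with TMM (1195 lower, 537 higher). Among the 121 of these with a deposited length of at most 2000 bases, which most members exceed, it was -0.19 (66 lower, 6 higher). Both were further below zero than the members' -0.10. RPS26, RPLP2, RPL27A and RPS10 had the largest negative differences among well counted members, at -0.43 ± 0.15, -0.33 ± 0.066, -0.33 ± 0.055 and -0.30 ± 0.072. RPL39L was the member called higher (0.19 ± 0.070, adjusted p = 0.0291), and its hormone responses were -0.15 ± 0.042 under ICRF and -0.33 ± 0.057 in siControl cells. RPL3, RPS20 and RPL15 had differences of 0.093 ± 0.051, 0.084 ± 0.057 and 0.069 ± 0.053 that did not pass. The number lower was 8 without ICRF untreated replicate 1, 10 without siControl progestin replicate 1, 37 without siCEBPA untreated replicate 1, 36 without siCEBPA untreated replicate 2 and 32 without siCEBPA progestin replicate 2, and the number higher was 0 in 9 of the 12 fits that left out 1 library. The labels of the ICRF libraries name no siRNA, arrest or time, so any difference in these cannot be told apart from ICRF.

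The ribosome biogenesis genes are given for comparison, with TMM scaling. Of the 50, 37 were higher and 2 lower with hormone in siControl cells (median 0.26), beside 29.2% and 29.3% of all genes. In siCEBPA cells 40 were higher and 2 lower (median 0.29), beside 29.9% and 28.4%. Under ICRF 7 were higher and 35 lower (median -0.21), beside 31.3% and 30.0%. Their calls under other scalings were not examined. The difference between ICRF and siControl was lower in 41 and higher in 2, beside 24.0% and 24.9% of all genes. Among those lower were DDX10 (-1.43 ± 0.064), NOP16 (-1.24 ± 0.068) and TCOF1 (-1.06 ± 0.058), all nucleolar proteins of ribosome assembly. LARP1, which binds TOP messenger RNAs, was higher with hormone in siControl cells (0.91 ± 0.038) and in siCEBPA cells (0.87 ± 0.038).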

How the data were processed

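The 12 RNA-seq libraries of T47D cells were analysed, 2 in each of 6 groups; 18 ChIP samples were not analysed here. The authors deposited 1 table of raw read pair counts per gene for each library, counted with featureCounts 1.5.1 over GENCODE 24 genes (hg38), with pairs as fragments and the strand option at 2, per the file headers. Read pairs mapping to several places or overlapping 2 genes were not counted under the options shown there. The kit was a TruSeq stranded mRNA kit, per the labels' protocols, and Trimmomatic and STAR are named without versions in the submitters' processing notes.

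Counts were tested with edgeR 4.0.16 (R 4.3.3; filterByExpr, TMM, robust quasi-likelihood fit, Benjamini-Hochberg adjustment over all genes tested, threshold 0.05). The 8 siRNA libraries gave 18351 genes tested (4 residual degrees of freedom), the 4 ICRF libraries 18556 (2), and the ICRF minus siControl difference used all 12 libraries with 19003 genes (6). Standard errors are the log2 fold change divided by the square root of F. DESeq2 1.42.0 and other scalings, filters, fits and left-out libraries were tried as alternatives. Scripts were tested on simulated data. Gene symbols matched 93.4% of gene IDs. Named by rule were 11 members with known roles or tissue-restricted expression, the 3 highest and 3 lowest per kilobase, the 4 largest positive and 4 largest negative log2 fold changes of each comparison among members with at least 5 CPM in a group, and the 3 smallest p-values of each other list; members outside it (RPL41, RPL21) were chosen after their values were seen. Some items are counted but not reported by name here. The members and lists were chosen with earlier results of these data known.

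Library totals were 57364785 to 148624099, and 77 members have named pseudogenes that can share reads with them. Intervals and limits at 0 counts cover counting error only.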

Additional observations from a re-analysis of the deposited data

Results flagged for a closer look

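The hormone response differed between ICRF and siControl cells, by the test of the difference itself (edgeR's quasi-likelihood test, Benjamini-Hochberg adjustment over 19003 genes), in 11 of the members named here. Some of these were named for the size of this same difference. Of all 79 members 20 were lower and 1 higher with TMM, and 2 were lower and 12 higher with no scaling factors. RPS26 and RPS27A passed narrowly (adjusted p = 0.0490 and 0.0494). The difference of log2 fold changes, ICRF minus siControl, was -0.61 for RPL36A, -0.43 for RPS26, -0.33 for RPLP2, -0.33 for RPL27A, -0.30 for RPS10 and -0.22 for RPL11. It was -0.21 for RPL34, -0.21 for RPL14, -0.17 for RPS15A, -0.15 for RPS27A and 0.19 for RPL39L. ICRF, siRNA, arrest and time labels differ together between these libraries and cannot be told apart, and 24.9% of all genes were higher and 24.0% lower in this difference.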

How the results depend on the processing

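The lower calls with CEBPA siRNA stayed between 68 and 75 of 79 members under every scaling, and between 65 and 74 when 1 library was left out. The higher calls there were 2 (upper quartile), 2 (no factors) and 2 (replicate block) in untreated cells, and 1, 2, 1 (no filter) and 1 (replicate block) with progestin, and 0 to 1 when 1 library was left out (69 to 74 lower in untreated cells). Deviations of same-numbered libraries correlated at 0.42, 0.52 and 0.555 between siCEBPA untreated, siControl untreated and siCEBPA progestin libraries, at -0.038 to 0.063 between each of these and siControl progestin libraries, and at 0.076 between the ICRF groups. The labels do not say what a number marks, and the numbers were not used to pair libraries. With the replicate block, siControl hormone calls were 29 higher and 5 lower, siCEBPA hormone calls 63 higher and 1 lower, and the siCEBPA minus siControl difference 2 higher and 0 lower (2 without the filter). Hormone calls were 5 higher and 9 lower (upper quartile) and 3 and 24 (no factors) in siControl cells, 11 and 4, and 7 and 6, in siCEBPA cells, and under ICRF 0 and 48 (upper quartile), and 3 and 5 with all 12 libraries in 1 fit. The ICRF minus siControl difference had 0 higher with RLE (26 lower), TMM without the members (30 lower) and DESeq2 (22 lower), 2 higher and 12 lower (upper quartile), 12 higher and 2 lower (no factors) and 13 lower (no filter). Leaving out 1 library gave 12 to 28 higher and 2 to 4 lower in siControl cells, 27 to 63 and 1 in siCEBPA cells, 0 to 12 and 4 to 27 under ICRF, 0 to 2 higher and 0 lower for siCEBPA minus siControl, and 0 to 1 higher and 8 to 37 lower for ICRF minus siControl. On the TMM effective library size the log2 share ratios were 0.086 (siControl hormone), 0.16 (siCEBPA hormone), -0.44 (knockdown untreated) and -0.36 (knockdown with progestin). Leaving out 1 library, the log2 share ratio ranged from -0.37 to -0.29 and from -0.29 to -0.24 for the knockdown, from -0.049 to 0.024, -0.11 to -0.056 and -0.029 to 0.0053 for hormone in siCEBPA, siControl and ICRF cells. The cause was not tested.

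For single members 1178 of 1316 alternative values kept direction and call, 61 lost a call, 56 gained one and 21, of 8 results, changed sign with no call in either fit. Sign changes were RPS12 (0.0052) and RPS24 (0.0030) without the filter in siCEBPA minus siControl, and RPS26 with CEBPA siRNA (untreated, 0.034 upper quartile and 0.086 no factors; progestin, 0.015 no factors). Leaving out 1 library, RPS26 ranged from -0.18 to 0.13 (untreated), -0.19 to 0.036 (progestin) and -0.21 to 0.11 (siCEBPA minus siControl). RPL36A ranged from -0.32 to 0.10 and RPL10L from -0.34 to 0.069 with progestin. In siCEBPA minus siControl RPL17 ranged from -0.15 to 0.062, RPS12 from -0.12 to 0.11 and RPS24 from -0.083 to 0.058. With 2 libraries a group, RPL36A and RPL10L at under 5 CPM carry the largest errors.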

Other observations

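Some members stood at different levels in the ICRF and siRNA libraries, which no comparison of the design covers. They were picked after their values were seen. RPL41, the smallest ribosomal protein of the large subunit, had 789.2 and 809.6 CPM in ICRF progestin cells and 799.4 and 779.3 CPM in ICRF untreated cells. In the siRNA libraries its highest value was 318.2 CPM, in siControl progestin cells, and its lowest was 228.7 CPM, in siCEBPA untreated cells. The labels of the ICRF and siRNA libraries differ in siRNA, arrest and time, which cannot be told apart from ICRF here.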
